A study of Mus musculus with 22 samples.

Results

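Late Nascent Mesoderm is one of 25 cell type names that the authors gave to the cells of mouse gastruloids. The cells described here are those that carry this name in the deposited cell table. They number 1804 of 77683 cells, or 2.32%, and 1803 of them have counts in the deposited matrices. A MULTI-seq barcode places 1539 of them in 43 of 136 single gastruloids, and 74.1% of all of them (1337 cells) lay in day 4 gastruloids of 1 experiment. All of them came from 1 Seurat cluster of 3418 cells, whose other 1614 cells were named Head Mesoderm.

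Nascent mesoderm is the mesoderm that has just left the primitive streak, the site of gastrulation where epiblast cells undergo an epithelial-to-mesenchymal transition and move away. In the mouse embryo the earliest cells to leave express the transcription factor Mesp1 and give rise to heart, head and extraembryonic mesoderm, while later ones form the presomitic mesoderm of the trunk. Of the 4 genes that mark the cells here, Mesp1 is a basic helix-loop-helix factor of this first mesoderm, Hand1 is a related factor of extraembryonic, lateral and cardiac mesoderm, Gata6 is a zinc finger factor of endoderm and cardiac mesoderm, and Kdr (also called Flk1) is the VEGF receptor of mesodermal progenitors of the cardiovascular lineages.

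Gastruloids are embryonic stem cell aggregates in which tissues of the gastrulating embryo arise in a dish, and the series asks how much single gastruloids of one age differ. All groups came from wild-type cells of the mouse E14Tg2A line, aggregated and treated with a pulse of CHIR99021, an inhibitor of the kinase GSK3, and they differ in age and experiment. A 10X experiment held 1 lane each of day 3 and day 4 with gastruloids not told apart. In MULTI-seq, cells of each gastruloid received a DNA barcode before pooling. MULTI-seq 1 covered day 5 with 24 gastruloids, MULTI-seq 2 covered day 4 with 11 and day 4.5 with 12 (those with at least 30 cells in pool B), while its samples of days 3 and 3.5 are not analysed here, and MULTI-seq 3 had 24 of day 3 and 16 each of days 3.5, 4, 4.5 and 5. Days 3.5 and 4 of MULTI-seq 3 were in 1 pool and days 4.5 and 5 in another. The gastruloids were picked as representative ones and all come from 1 stem cell line, so p-values measure the spread between gastruloids of an experiment.

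Late Nascent Mesoderm cells of day 4 in MULTI-seq 3 had a median of 37241 UMIs (unique molecule counts) against 30926 in the other cells of the same gastruloids. Of all Late Nascent Mesoderm cells, 110 were called doublets of 2 gastruloids by their MULTI-seq barcodes and 9 were negative. The doublets had a median of 57782 UMIs against 36181 in the 1539 cells of single gastruloids, and they enter no value per gastruloid below. Their summed levels, as CPM (UMI counts scaled to the same total in each sample), were 206 and 171 CPM for Mesp1, 30.5 and 50.3 for Hand1, 60.5 and 65.1 for Gata6 and 80.5 and 67.6 for Kdr, doublets first. Doublets within 1 gastruloid cannot be seen this way. Among 76944 cell barcodes, 732 occurred in more than 1 lane, 43 of these cells were Late Nascent Mesoderm, and 0 barcodes were Late Nascent Mesoderm in more than 1 lane.

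Promoter sequences of 3 genes on which the results turn are shown here: Mesp1, its neighbour Mesp2 (a paralogue of segmenting presomitic mesoderm), and Myl7, which codes for the atrial myosin light chain and had the largest difference among the genes higher in these cells than in the others. They are from RefSeq on GRCm38.p6, 5′ to 3′ on the strand of the gene, and run up to the annotated gene start. Capitals mark a T-box core (AGGTGT), E-boxes (CANNTG) and a GATA site (TGATAA), each searched on both strands. The Mesp1 stretch is short because the annotated gene extends upstream of the transcript start from which the window was taken.
Mesp1: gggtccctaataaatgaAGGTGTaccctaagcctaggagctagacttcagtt
Mesp2: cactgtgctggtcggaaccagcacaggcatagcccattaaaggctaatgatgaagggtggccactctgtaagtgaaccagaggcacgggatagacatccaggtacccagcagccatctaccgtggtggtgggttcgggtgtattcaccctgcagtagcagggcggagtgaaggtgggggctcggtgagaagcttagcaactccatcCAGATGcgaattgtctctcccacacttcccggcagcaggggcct
Myl7: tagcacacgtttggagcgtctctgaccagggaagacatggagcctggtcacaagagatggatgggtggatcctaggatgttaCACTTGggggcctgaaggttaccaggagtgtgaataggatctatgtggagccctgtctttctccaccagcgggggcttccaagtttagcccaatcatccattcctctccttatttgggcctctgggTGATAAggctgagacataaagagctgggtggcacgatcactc
The Mesp1 stretch lies at chr7:79793789-79793840 on the minus strand, with its T-box core 233 bases before the RefSeq start. That motif occurs in 2.65% of 32841 promoter windows of 52 bases. The Mesp2 stretch, chr7:79810477-79810726 on the plus strand, holds an E-box (CAGATG) 44 bases before the start. An E-box occurs in 66.2% of windows of 250 bases. The Myl7 stretch, chr11:5898783-5899032 on the minus strand, holds an E-box (CACTTG) 168 bases and a GATA site 42 bases before the start, and 7.94% of windows of 250 bases hold the GATA site. The Mesp1 and Mesp2 genes lie 16938 bases apart and are read in opposite directions. A match of letters is a description and shows no binding.

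Late Nascent Mesoderm cells were most frequent at day 4 and rare on the days before and after. In MULTI-seq 3 they were not found in the 24 gastruloids of day 3. Of all 12086 cells of the day 3 lanes, with or without a gastruloid call, 0 carried the name. This allows a share of up to 0.0541% in the lane with fewer cells. The 10X lane of day 3 held 2 of 3058 cells (0.0654%, exact 95% interval 0.00792% to 0.236%, for counting error only). At day 3.5 they made up 0.441% ± 1.41 (SD, n = 16) of a gastruloid, with a range of 0% to 5.65%. At day 4 the share was 8.59% ± 6.93 (SD, n = 16), with a lowest value of 0%, a median of 9.37% and a highest value of 19.8%. At day 4.5 it was 0.506% ± 0.823 and at day 5 it was 0.0336% ± 0.0616 (SD, n = 16 each). The groups overlapped, because single gastruloids of day 4 held 0 or few such cells and 1 gastruloid of day 3.5 held many.

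**Figure D1:**
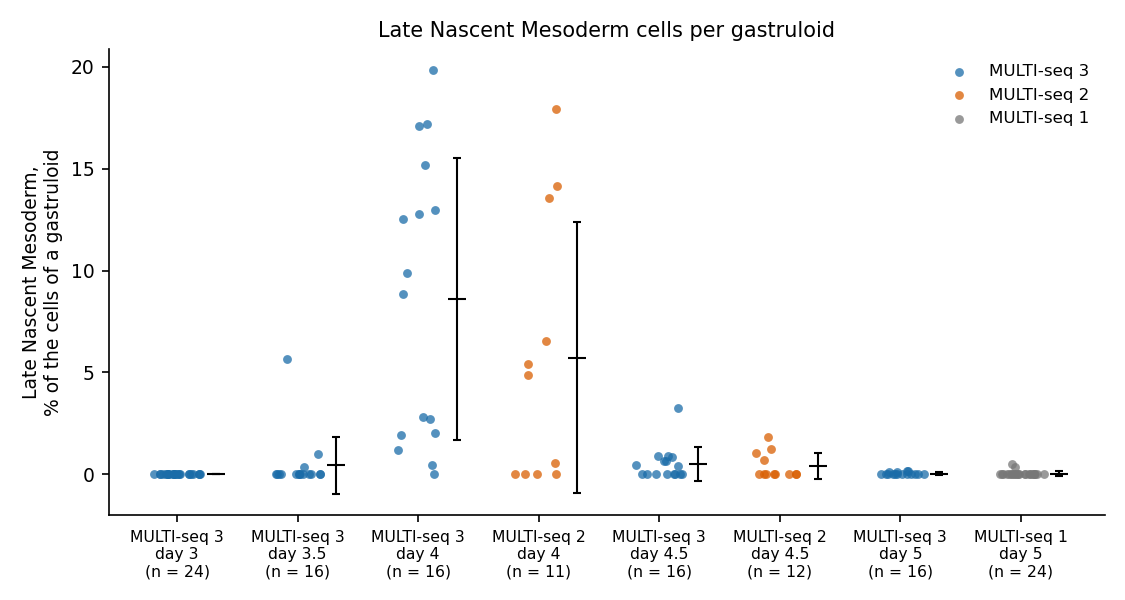
Share of Late Nascent Mesoderm cells (y axis, percent of the cells of a gastruloid) by experiment and day (x axis); each point is 1 gastruloid with at least 30 cells, and the black dash and bars are the mean and SD. Day 4 gastruloids reach 19.8%, while the highest value of any other day is 5.65%, in 1 gastruloid of day 3.5.

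Within the pool shared by days 3.5 and 4, the share was higher at day 4 by 8.15 percentage points (two-sided permutation test with 100000 resamples, Benjamini-Hochberg over 20 cell types, adjusted p = 5.71e-05), and 15 of 16 day 4 gastruloids lay above the day 3.5 median. Of the 36 Late Nascent Mesoderm cells of day 3.5, 30 came from the gastruloid with barcode 28. Without it, an alternative chosen after seeing the data, the difference was 8.50 points (permutation test, unadjusted p = 4e-05). In MULTI-seq 2, whose days 4 and 4.5 shared a pool, the share went from 5.73% ± 6.64 (SD, n = 11) to 0.406% ± 0.648 (SD, n = 12), a change of -5.33 points (permutation test, adjusted p = 0.0171), and 12 of 12 day 4.5 gastruloids lay below the day 4 median of 4.90%. With a minimum of 100 cells per gastruloid this change was -8.07 points. In MULTI-seq 3 the change from day 4 to day 4.5 was -8.08 points (permutation test, adjusted p = 0.000127), but these days were in different pools, so day and pool cannot be told apart. The mix of gastruloids that the authors class as neural or mesodermal also differed between the days compared, as described below.

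The rise and fall also passed in edgeR's quasi-likelihood test of cell numbers. The log2 fold changes were 4.01 for day 4 against day 3.5, -3.51 for day 4.5 against day 4 in MULTI-seq 2 and -4.01 for the same days in MULTI-seq 3, with edgeR adjusted p = 0.000133, 0.00417 and 3.2e-05. The change from day 4 to day 4.5 differed between the 2 experiments by -2.76 percentage points, which did not pass (permutation test, p = 0.310). At day 4 MULTI-seq 3 was above MULTI-seq 2 by 2.86 points (permutation test, adjusted p = 0.555), and by 0.0745 points with a minimum of 100 cells per gastruloid. The SDs between gastruloids, 6.93 and 6.64 points, are larger than this difference. In the 4 lanes of the day 3.5 and 4 pool, which are technical splits of the same gastruloids, the share among day 4 cells was 9.88%, 9.32%, 9.21% and 10.5%.

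The day 4 gastruloids of MULTI-seq 3 differed widely in this cell type. The 2 that the authors class as neural held 0 of 390 and 2 of 457 Late Nascent Mesoderm cells. Of the 14 classed as mesodermal, 5 held 1.20% to 2.83% and 9 held 8.85% to 19.8%. In MULTI-seq 2, the 3 neural gastruloids held 0 of 92, 0 of 61 and 0 of 60 cells, and the 8 mesodermal ones held 0% to 17.9%. The classes derive from cell type composition, so their difference is given with no test. A count of 0 of 390 cells allows a share of up to 0.769%, for counting error only. The mix of classes was not the same on each day. In MULTI-seq 3, most day 3.5 gastruloids were neural and held 0% of these cells. Neural ones were also more frequent on day 4.5 than on day 4 in both experiments. Among mesodermal gastruloids alone, the highest share was 5.65% on day 3.5. On day 4.5 it was 3.27% in MULTI-seq 3 and 1.83% in MULTI-seq 2. The tests between days were not split by class, so the part of the class mix in their results was not tested.

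Gastruloids of day 4 with more Late Nascent Mesoderm also held more Cardiopharyngeal Mesoderm, the type of heart and pharyngeal arch progenitors. Shares of other types were taken among the cells that are not Late Nascent Mesoderm, and 34 relations were computed in all. In MULTI-seq 3 the correlation was r = 0.721 (n = 16, permutation test, p = 0.00026, adjusted p = 0.00884) and rho = 0.891 (permutation p = 3e-05, adjusted p = 0.00102). With the 2 gastruloids whose Late Nascent Mesoderm share lay farthest from the median left out, r was 0.635. In MULTI-seq 2 it was r = 0.628 (n = 11, permutation test, p = 0.0346, adjusted p = 0.101) and rho = 0.650 (permutation p = 0.0350, adjusted p = 0.0681), and r fell to 0.181 without 2 gastruloids, so that relation rests on them.

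**Figure D2:**
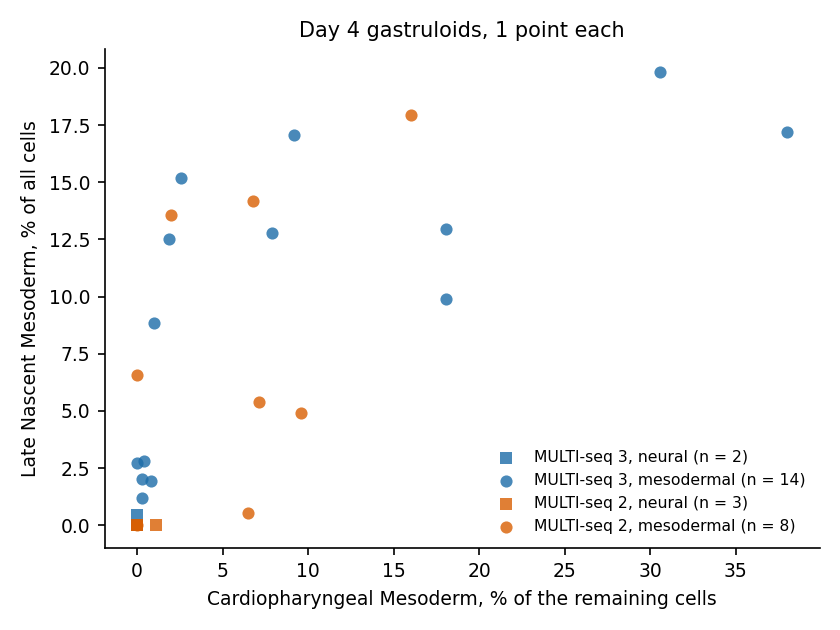
Share of Late Nascent Mesoderm (y axis, percent of all cells) against that of Cardiopharyngeal Mesoderm (x axis, percent of the remaining cells) in day 4 gastruloids, 1 point each; squares are gastruloids classed by the authors as neural and circles those classed as mesodermal. Gastruloids with over 5% Cardiopharyngeal Mesoderm in MULTI-seq 3 all hold at least 9.89% Late Nascent Mesoderm, while those with less spread from 0% to 15.2%.

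Of the other types, Mature Endoderm went with Late Nascent Mesoderm in MULTI-seq 2 (r = 0.834, n = 11, permutation test, p = 0.00243, adjusted p = 0.0413, r = 0.766 without 2 gastruloids, rho = 0.783, adjusted p = 0.0328). In MULTI-seq 3 its r was 0.129 (n = 16, permutation test, adjusted p = 0.721), and the difference between the experiments was not tested. The MULTI-seq 2 relation lost its call with shares of all cells, with a minimum of 100 cells and without lane 3. Head Mesoderm, named from the same Seurat cluster, gave r = -0.294 in MULTI-seq 3 (n = 16, permutation test, adjusted p = 0.408) and r = 0.610 in MULTI-seq 2 (n = 11, permutation test, adjusted p = 0.105). By rank, Somites (rho = 0.676, n = 16, permutation test, adjusted p = 0.0328) went with Late Nascent Mesoderm in MULTI-seq 3, as did Early Anterior PSM (presomitic mesoderm) in MULTI-seq 2 (rho = 0.803, n = 11, permutation test, adjusted p = 0.0328). Caudal Neurectoderm ran opposite to Late Nascent Mesoderm in MULTI-seq 3 (rho = -0.830, n = 16, permutation test, adjusted p = 0.00272), with r = -0.468 (permutation test, adjusted p = 0.101). Late Spinal Cord, present in 3 of these 16 gastruloids, also ran opposite by rank (rho = -0.617, permutation test, adjusted p = 0.0371). Caudal Epiblast and Early Spinal Cord did so in MULTI-seq 2 (rho = -0.786 and -0.826, n = 11, permutation test, adjusted p = 0.0328 for each).

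The 4 marker genes were checked in the 14 day 4 gastruloids of MULTI-seq 3 with at least 10 Late Nascent Mesoderm cells. UMI counts of these cells were summed per gastruloid (472671 to 12678862 UMIs) and are given as CPM. Because clusters were made from these genes, differences from other cells are descriptions with no test. Log2 differences were taken after adding 5 CPM. Mesp1 (ENSMUSG00000030544) had a lowest, median and highest level of 61.2, 119 and 339 CPM in Late Nascent Mesoderm and 17.3, 39.8 and 74.5 in all other cells of the same gastruloids. Its log2 difference was 1.63 ± 0.498 (SD, n = 14), with 14 of 14 gastruloids higher. Gata6 (ENSMUSG00000005836) had 23.3, 58.9 and 84.0 against 13.2, 23.8 and 40.7, a log2 difference of 1.05 ± 0.442 (14 of 14 higher). Both were higher in each gastruloid, although the ranges of the groups overlap.

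Kdr (ENSMUSG00000062960) and Hand1 (ENSMUSG00000037335) were less even. Kdr had 0, 35.2 and 186 CPM against 2.82, 4.84 and 12.5 in the other cells, a log2 difference of 2.06 ± 1.43 (SD, n = 14; 13 of 14 higher). Hand1 had 0, 12.9 and 172 against 0.228, 3.88 and 47.2, a log2 difference of 0.68 ± 0.755 (10 of 14 higher). Hand1 was at 0 in the gastruloids with barcodes 1, 7 and 13, which had 12 to 21 Late Nascent Mesoderm cells, and was highest at 166 and 172 in barcodes 17 and 2. The same 2 gastruloids were highest for Kdr (184 and 186) and for Mesp1 (339 and 279).

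Other cell types of the same gastruloids carried each marker too. By mean level Late Nascent Mesoderm was second for Mesp1 (154 ± 89.2, SD, n = 14), after Early Nascent Mesoderm (189 ± 91.1, n = 4) and before Early Posterior PSM (116 ± 35.2, n = 16). For Hand1 it was second at 34.4 ± 58.1, after Cardiopharyngeal Mesoderm at 79.0 ± 109 (SD, n = 8). Early Nascent Mesoderm was close at 34.1 ± 38.2 (n = 4), and its median was higher (27.4 against 12.9). For Gata6 Early Nascent Mesoderm was highest at 105 ± 21.2 (SD, n = 4), and Mature Endoderm at 57.4 ± 14.5 (n = 14), Late Nascent Mesoderm at 57.3 ± 18.5 and Cardiopharyngeal Mesoderm at 51.4 ± 9.56 followed. For Kdr it was second at 60.6 ± 59.9, after Early Nascent Mesoderm at 142 ± 76.5 and before Head Mesoderm at 29.4 ± 14.6 (n = 7). Except for Gata6 against Early Nascent Mesoderm, whose ranges do not overlap, the ranges of these neighbours overlap. These means are over unlike sets of gastruloids, since only barcodes 2, 6, 17 and 19 held at least 10 Early Nascent Mesoderm cells. In these 4 gastruloids Mesp1 was higher in Late than in Early Nascent Mesoderm (277 ± 46.0 against 189 ± 91.1 CPM, SD, 4 of 4), as was Hand1 (88.4 ± 92.9 against 34.1 ± 38.2, 4 of 4). There Gata6 was lower (70.1 ± 10.5 against 105 ± 21.2, higher in 0 of 4), and Kdr was 134 ± 63.8 against 142 ± 76.5 (2 of 4 higher). In the 8 gastruloids with at least 10 cells of both Late Nascent and Cardiopharyngeal Mesoderm, Hand1 was 56.3 ± 70.4 against 79.0 ± 109 (2 of 8 higher) and Gata6 67.1 ± 13.0 against 51.4 ± 9.56 (8 of 8 higher). All 4 markers of the label were thus present, and each was also found in other types.

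**Figure D3:**
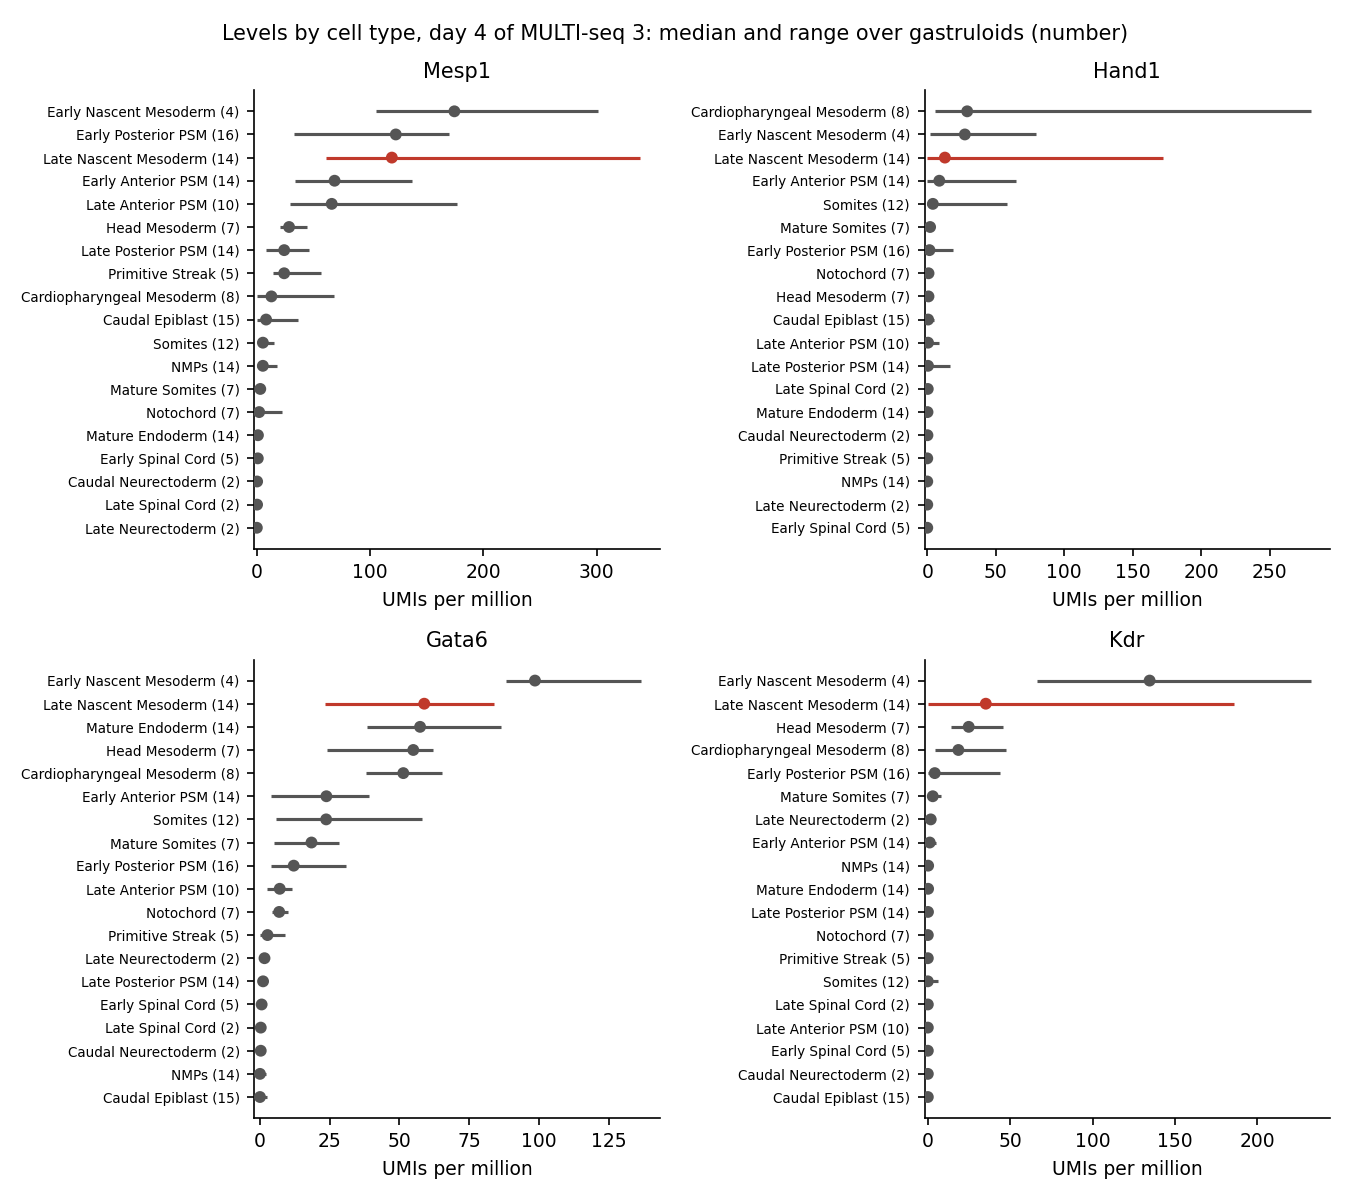
Levels of Mesp1, Hand1, Gata6 and Kdr (x axis, CPM) by cell type (y axis, ordered by median, number of gastruloids with at least 10 cells in brackets) at day 4 of MULTI-seq 3; dots are medians and lines the lowest to highest gastruloid. Late Nascent Mesoderm, in red, is among the 3 highest types by median for each of the 4 genes.

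Within cells, the markers were detected in parts of the population. After thinning each of the 1337 cells to 5000 UMIs, Mesp1 was detected in 41.4% of them (95% Wilson interval 38.7% to 44.0%), Gata6 in 25.6% (23.3% to 28.0%), Kdr in 21.2% (19.1% to 23.5%) and Hand1 in 14.1% (12.3% to 16.0%). Intervals cover counting error only, and 0 cells were shallower than 5000 UMIs. Unthinned shares were 79.0%, 79.4%, 51.8% and 36.5%. In Mature Endoderm cells, which should lack Mesp1, Hand1 and Kdr and had a median depth of 40441.5 UMIs, thinned shares were 0.421%, 0.168% and 0.337%, so the values above exceed this background. For Gata6, which endoderm expresses, the background was read from Caudal Neurectoderm, with 0 of 191 cells, which allows up to 1.57%, at a median of 33475 UMIs. Of the Late Nascent Mesoderm cells, 38.3% had a UMI of 0 of the 4 markers at this depth and 1.80% had all 4.

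Against all other cells of the same gastruloids, the largest difference was in Myl7, the atrial myosin light chain gene. Of 5967 genes with at least 20 CPM in either group, 0.754% were higher and 1.81% were lower by a log2 difference of at least 1. Myl7 had 83.9, 133 and 273 CPM (lowest, median and highest of 14 gastruloids) against 1.65, 5.96 and 10.3 in the other cells, a log2 difference of 3.72 ± 0.766 (SD), and the groups did not overlap. In the 4 gastruloids that also held Early Nascent Mesoderm, Myl7 had a mean of 199 ± 57.7 in Late and 145 ± 40.1 in Early Nascent Mesoderm (SD, 4 of 4 higher). Nexn, which codes for the Z-disc protein nexilin, had a median of 44.3 against 5.79 (log2 difference 1.78 ± 0.467). Asb4, a subunit of a ubiquitin ligase, had 150 against 13.0 (3.05 ± 0.707), with no overlap.

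Among transcription factors, Lhx1, a LIM homeobox factor of the streak and early mesoderm, had a median of 322 against 57.4 (log2 difference 2.65 ± 0.543, no overlap). Eomes, the T-box factor that acts upstream of Mesp1, had 61.6 against 12.8 (2.48 ± 0.932). Otx2, a homeobox factor of anterior identity, had 67.2 against 12.9 (1.81 ± 0.982), and Gata4, of cardiac mesoderm, had 22.5 against 4.36 (1.53 ± 0.462, no overlap). These factors were higher in 13 or 14 of 14 gastruloids. In the 4 gastruloids that also held Early Nascent Mesoderm, Lhx1 was 637 ± 175 in Late and 858 ± 162 CPM in Early Nascent Mesoderm (SD, 1 of 4 higher), and Eomes was 259 ± 40.9 and 298 ± 110 (2 of 4 higher). Signalling genes among the 15 with the largest differences were Lefty2, an inhibitor of Nodal (median 27.2 against 4.49, 1.61 ± 0.977), Cyp26a1, which degrades retinoic acid (64.8 against 14.1, 1.94 ± 0.914), Sfrp1, a secreted Wnt antagonist (385 against 75.2, 1.57 ± 0.604), and Dusp9, a phosphatase of MAP kinases (63.9 against 15.5, 1.65 ± 0.344). In the 4 gastruloids that also held Early Nascent Mesoderm, Lefty2 was 93.5 ± 77.3 in Late and 209 ± 86.2 CPM in Early Nascent Mesoderm (SD, 0 of 4 higher). Tubb2a, a tubulin, and Capn6 complete the 15, with log2 differences of 1.53 and 1.43.

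The primitive streak list split in direction. Of its 15 genes that passed this filter, 4 were higher by a log2 difference of at least 1 (Lhx1, Eomes, Lefty2, and Tdgf1, a Nodal co-receptor, at 1.27) and 6 were lower. Tdgf1 was 191 ± 57.1 in Late and 398 ± 163 CPM in Early Nascent Mesoderm of the 4 gastruloids with both (SD, 1 of 4 higher). The 6 lower than in all other cells were T at -2.58, Fgf8 at -2.17, Fgf17, Tbx6, Apela and Cdx2. T, the factor of the streak and posterior mesoderm, had 5.24, 11.0 and 26.9 CPM against 40.4, 99.9 and 241 in the other cells, with no overlap. The median over the list was -0.09, beside 0.02 over all genes tested. In the list of cardiogenic factors, Gata4 was higher and Hoxb1 lower of 9 that passed the filter, and 14 of 23 were too low to pass. Isl1 had a median of 11.8 and Hand2 one of 17.4 CPM, while Nkx2-5 and Tbx5, factors of the differentiating heart, had medians of 0.230 and 1.71.

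E-cadherin (Cdh1) had 0, 1.15 and 4.07 CPM against 15.8, 33.6 and 52.1 in the other cells, and Epcam had a log2 difference of -2.67. N-cadherin (Cdh2) had 173, 222 and 302 against 161, 196 and 227, and Twist1, a factor of mesenchyme, had 111, 161 and 217 against 66.2, 122 and 164. Of the 17 adhesion genes that passed the filter, 1 was higher (Cxcr4, a chemokine receptor of migrating mesoderm, 1.13) and 5 were lower by at least 1 (Cdh1, Epcam, Cldn6, Cldn7 and Flrt3). In the BMP list 0 of 11 were higher and 3 were lower, namely the target genes Id1 (-1.21) and Id2 (-1.13) and the antagonist follistatin (Fst, -1.55). In the FGF, VEGF and PDGF list, the VEGF co-receptor Nrp1 was higher (1.32) and Pdgfa lower (-1.35) of 9. In the retinoic acid and Wnt list, 2 of 12 were higher (Cyp26a1 and Sfrp1) and 4 were lower, among them Aldh1a2, Frzb and Rspo3.

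Markers of other cell types were measured in the same sums. Of 18 endothelial and blood markers, 14 were under 1 CPM on average and Cldn5, Emcn and the globins Hba-x, Hbb-bh1 and Hbb-y were at 0 in all 14 gastruloids, with a summed level of 7.17 to 26.9 against 14.8 to 62.3 in the other cells. The sum of 11 endoderm markers was 130 to 290 against 237 to 1492, with Ttr at 0. The 10 neural markers summed to 15.3 to 78.3 against 48.2 to 109, and the 10 epiblast and germ cell markers to 92.2 to 132 against 126 to 290. The 11 presomitic and somite markers summed to 335 to 1151 against 718 to 1507. Of these 6 lists, only the 9 extraembryonic mesoderm markers had a higher sum in Late Nascent Mesoderm, of 50.8 to 523 against 54.1 to 136 (13 of 14 gastruloids). Most of it was Phlda2, an imprinted growth regulator (29.6, 175 and 443 against 28.1, 82.5 and 114), while Postn, Tbx4 and Hoxa13 had medians of 0.

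Head Mesoderm came from the same Seurat cluster. In the 7 gastruloids with at least 10 cells of both, 0.434% of 5987 genes were higher and 0.401% lower in Late Nascent Mesoderm by a log2 difference of at least 1. Of the primitive streak list, 1 of the 6 genes that passed the filter was higher and 0 were lower (list median 0.52). Of the cardiogenic factors, 0 of 7 were higher and 2 were lower (list median -0.66). Of the presomitic and somite markers, 4 of 6 were higher and 0 were lower (list median 1.40). The median over all genes tested was -0.03. The protocadherin Pcdh8 (56.9 ± 27.5 against 6.88 ± 6.73 CPM, SD, n = 7, log2 difference 2.45), the Notch ligand Dll1 (58.4 ± 28.4 against 12.6 ± 5.11, 1.78) and Mesp1 (88.2 ± 27.1 against 32.0 ± 8.13, 1.31) were higher in 7 of 7. The other markers were closer or less even between the types. Gata6 was 49.1 ± 19.4 against 45.9 ± 15.3 (0.06, 3 of 7 higher), Kdr 20.8 ± 13.1 against 29.4 ± 14.6 (-0.56, 2 of 7 higher) and Hand1 11.9 ± 16.4 against 1.36 ± 1.39 (0.89, 4 of 7 higher). The mesenchymal factor Snai2 was lower (6.55 ± 3.18 against 42.9 ± 15.4, -2.04), as were Cdh11 (-1.40) and Tgfb2 (-1.66), in 7 of 7.

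Against Cardiopharyngeal Mesoderm, in 8 gastruloids, 1.19% of 5954 genes were higher and 1.28% lower. Pcdh8 had 67.9 ± 32.7 against 0.748 ± 0.596 CPM (SD, n = 8, log2 difference 3.57), Eomes 140 ± 124 against 9.40 ± 9.96 (3.05), Mesp1 161 ± 99.2 against 24.4 ± 27.8 (2.84) and Lhx1 376 ± 223 against 53.9 ± 28.6 (2.66), each higher in 8 of 8. Myl7, Asb4, Cyp26a1, Dll1, Ripply2 and Otx2 were the others of the 10 largest. Those lower included Rdh10, which makes retinal for retinoic acid synthesis (15.0 ± 3.82 against 135 ± 11.4, -2.83), the growth factors Tgfb2 (-2.53) and Ptn (-2.35), and the mesenchymal homeobox factors Prrx2 (-2.25) and Prrx1 (-2.04), each lower in 8 of 8. Ndnf, Hoxa2, Zfp503, Clu and Tshz2 complete that 10. Of the 15 cardiogenic factors that passed the filter, 5 were lower by at least 1 and 2 were higher, with a list median of -0.11. Those lower were Prrx1, Meis2 (-1.59, lower in 8 of 8) and the second heart field factors Isl1 (-1.38, 8 of 8), Tbx1 (-1.27, 7 of 8) and Mef2c (-1.47, 7 of 8). Those higher were Gata4 (1.12, higher in 8 of 8) and Msx1 (1.00, 8 of 8).

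Early Nascent Mesoderm could be compared in 4 gastruloids, where 0.644% of 5898 genes were higher and 0.695% lower in Late Nascent Mesoderm. Few of the 2275 Early Nascent Mesoderm cells of the series lay in day 4 gastruloids of MULTI-seq 3. The values thus rest on few cells and describe that type at day 4 only. The somite factor Tcf15 (66.6 ± 50.7 against 6.73 ± 12.1 CPM, SD, n = 4, log2 difference 2.83), Ripply2, a repressor at segment borders (41.0 ± 22.1 against 2.13 ± 1.72, 2.58), Foxc2 (2.03), Mesp2 (1.51) and Pcdh8 (1.71) were higher in 4 of 4. Mixl1, a homeobox factor of mesendoderm (30.4 ± 20.6 against 187 ± 33.7, -2.69), T (13.2 ± 4.07 against 104 ± 37.5, -2.54), the haematopoietic factor Lmo2 (-2.35), Fgf8 (-1.76) and the pluripotency factor Pou5f1 (-1.64) were lower in 4 of 4. Mesp1 was 277 ± 46.0 against 189 ± 91.1 in these gastruloids.

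The authors mapped each cell to a mouse embryo reference, and Late Nascent Mesoderm fell mainly under 2 of its labels. Paraxial mesoderm took 956 cells (53.0%) and nascent mesoderm 747 (41.4%), and each other label at most 1.33%. Of the Early Nascent Mesoderm cells 85.6% were labelled nascent mesoderm, of Cardiopharyngeal Mesoderm 41.3% and of Head Mesoderm 27.3% paraxial mesoderm. The matched embryo stages were 7.25 for 466 cells, 7.5 for 386 and 7.0 for 113, and 689 cells matched the reference's mixed gastrulation sample. The mapping score had a median of 0.933 for the cells labelled nascent and of 0.783 for those labelled paraxial, on a scale that reached 1.0.

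The split between the 2 labels varied from gastruloid to gastruloid. In the 14 day 4 gastruloids, from 0% (barcodes 7 and 13, with 12 and 21 cells) to 83.4% (barcode 17, 193 cells) of the cells were labelled nascent. In 9 gastruloids the 2 labels could be compared. Cells labelled nascent had more Tdgf1 (148 ± 104 against 17.1 ± 11.7 CPM, SD, n = 9, log2 difference 2.52), Eomes (229 ± 121 against 62.1 ± 43.6, 1.79), Bmp2 (1.90), Gsc (1.59), Kdr (106 ± 80.4 against 27.6 ± 11.1, 1.53) and Mesp1 (248 ± 74.3 against 114 ± 55.8, 1.19). Cells labelled paraxial had more Tcf15 (222 ± 90.5 against 49.8 ± 25.5, -2.12), Prrx2 (-1.96), Cer1 (-1.53) and Irx5 (-1.19). The label was assigned from the same genes, so these values describe it and carry no test.

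Detection of such genes was also compared cell by cell. Of the 188 cells with a Hand1 UMI after thinning to 5000 UMIs, 16.0% had a Tcf15 UMI, against 45.3% of the other 1149. For Kdr the shares were 47.9% and 16.9%, and for Mesp1 64.9% and 37.5%, while Myl7 was near even at 41.5% and 38.9%. Among cells with a Kdr UMI 15.5% had Tcf15, against 48.1% of those without. Mesp1 occurred with Eomes in 47.0% of its cells, against 23.9% of cells without Mesp1, and with Tcf15 in 25.9% against 52.0%. Cells come from 15 gastruloids that differ in these genes, so the shares mix differences within and between gastruloids.

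**Figure D4:**
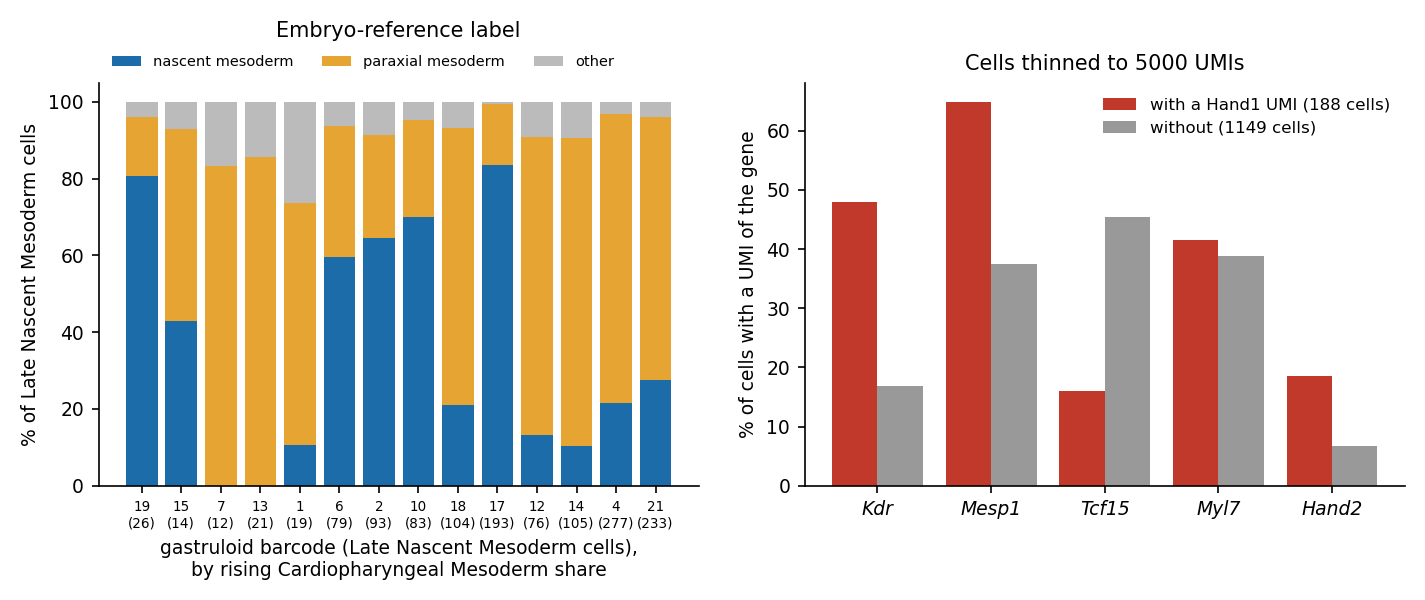
Left, percent of the Late Nascent Mesoderm cells (y axis) labelled nascent, paraxial or other in the embryo reference, for 14 day 4 gastruloids of MULTI-seq 3 in the order of their Cardiopharyngeal Mesoderm share (x axis, barcode and number of cells). Right, percent of cells with a UMI of each gene (y axis) among 188 cells with a Hand1 UMI (red) and 1149 without (grey), all thinned to 5000 UMIs; Kdr, Mesp1 and Hand2 are higher and Tcf15 lower beside Hand1.

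Next, gene levels within Late Nascent Mesoderm were set against the makeup of the gastruloid around it. The covariate was the square root of the Cardiopharyngeal Mesoderm percentage among the other cells, which ran from 0% (barcode 19) to 38.0% (barcode 21) over 14 gastruloids. Of 10886 genes tested by edgeR's quasi-likelihood test, 137 (1.26%) were higher and 221 (2.03%) were lower with more Cardiopharyngeal Mesoderm at an adjusted p under 0.05. Changes are given as log2 over this range with the SE, and levels as TMM-scaled CPM in the 8 gastruloids under 5% and the 6 over 5%. Here and below, the SE of an edgeR change was worked back from the change and its F statistic. It is therefore no measure of precision apart from the test. Values of the 4 markers did not pass, with log2 changes of -0.96 for Mesp1, -0.38 for Hand1, 0.31 for Gata6 and -1.52 for Kdr (edgeR adjusted p = 0.439 to 0.986).

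Primitive streak genes tended down. Of the 16 tested, 7 fell and 0 rose, with a list median of -1.94 beside 0.00 over all genes. Gsc, an organizer homeobox factor, had 3.42, 22.1 and 75.1 CPM (lowest, median, highest) under 5% and 0.557, 3.70 and 31.7 over it, a log2 change of -4.73 ± 0.936 (SE, edgeR adjusted p = 0.0115). Lefty2 had 0, 59.9 and 208 against 4.29, 15.3 and 48.5 (-4.22 ± 0.716, edgeR adjusted p = 0.00407). Lhx1 had 208, 493 and 851 against 204, 257 and 512 (-1.64 ± 0.411, edgeR adjusted p = 0.0350). The ranges of the 2 sets overlap for all 3, and low values also occur in some gastruloids with little Cardiopharyngeal Mesoderm. T, Mesp2, Sp5 and Tbx6 fell as well.

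Some markers of segmentation fell as well. Of 10 presomitic and somite markers tested, 4 fell (the Notch pathway genes Dll1, Dll3 and Lfng, and Ripply2) and 0 rose. Dll1 had 27.0, 105 and 191 against 38.1, 57.4 and 100 CPM (-1.87 ± 0.323, SE, edgeR adjusted p = 0.00416). Of 16 FGF, VEGF and PDGF genes, 4 fell and 0 rose: the ligand Fgf5 (-3.84 ± 0.870), the feedback targets Spry4 (-2.14) and Etv4 (-1.98), and the VEGF receptor Flt1 (-3.94 ± 0.615). The adhesion list had 6 that fell (Pcdh19, Pcdh8, Itga5, Vcan, Cxcr4 and Zeb2) and 1 that rose (Snai2, 3.62 ± 0.686) of 17. Myl7 fell too, from 93.4, 155 and 275 to 83.2, 97.5 and 180 (-1.31 ± 0.295, edgeR adjusted p = 0.0211). The genes Pmepa1, S100a10, Trh, Gm45889 and Lmo1 were the others of the 10 with the largest falls.

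Of 16 BMP genes tested, 3 rose and 1 fell. The 3 that rose were the Id genes, direct BMP targets whose products inhibit helix-loop-helix factors, and Fst fell (-1.81 ± 0.428). Id1 had 22.8, 48.3 and 141 CPM under 5% and 73.9, 122 and 167 over it (1.62 ± 0.406, SE, edgeR adjusted p = 0.0345), Id2 1.35, 12.8 and 46.6 against 23.3, 37.2 and 65.2 (1.82 ± 0.450, edgeR adjusted p = 0.0333), and Id3 33.2, 149 and 386 against 320, 410 and 510 (2.04 ± 0.439, edgeR adjusted p = 0.0167). The BMP ligands Bmp2, Bmp4, Bmp5 and Bmp7 were tested and did not pass. Of 20 cardiogenic factors tested, 4 rose (Smarcd3, Mef2c, Tcf21 and Prrx1) and 1 fell, while 10 of the 20 slopes were positive and the list median was 0.04. Smarcd3, a cardiac subunit of a chromatin remodeller, had 12.0, 17.3 and 29.7 against 35.7, 43.4 and 50.6 (1.56 ± 0.261, edgeR adjusted p = 0.00407), and its 2 sets did not overlap.

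**Figure D5:**
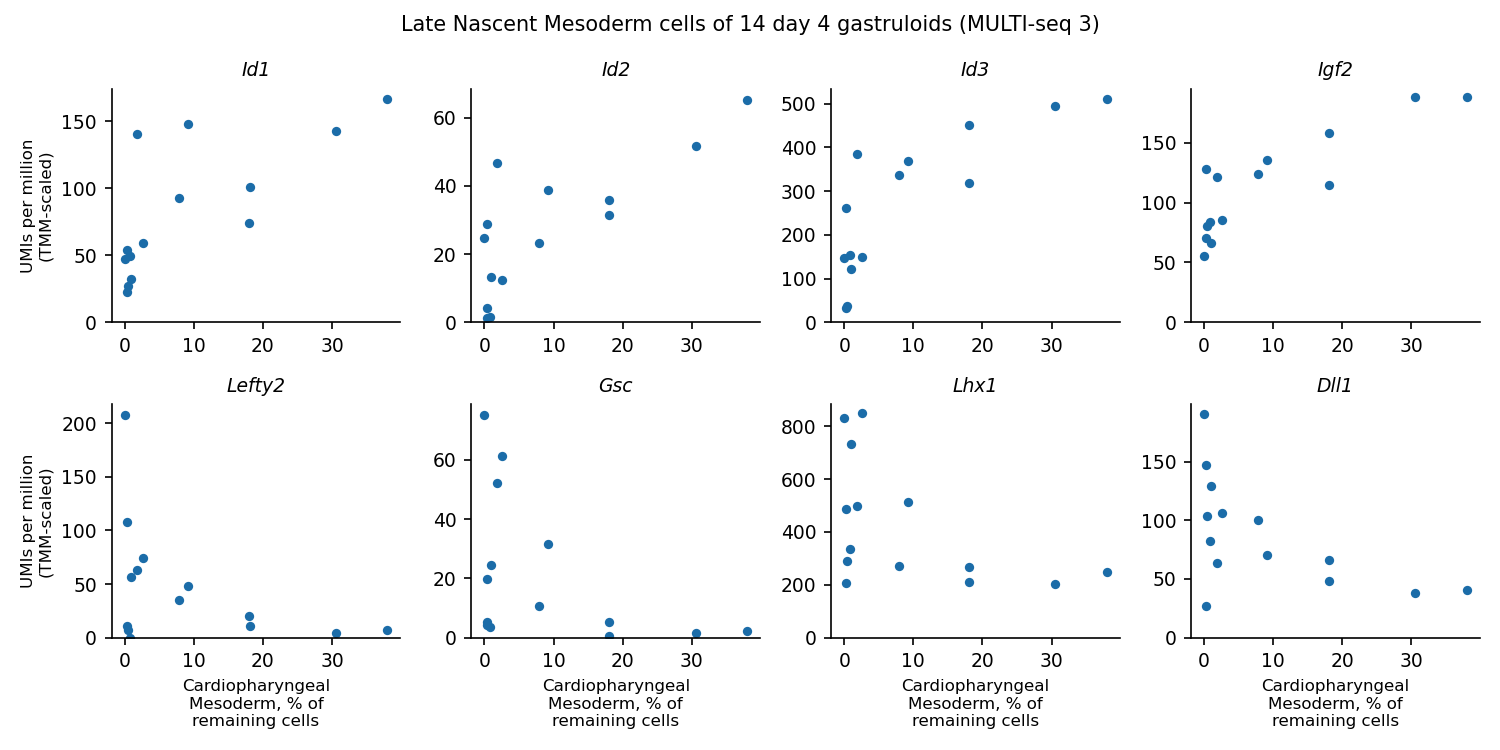
Levels of 8 genes in Late Nascent Mesoderm cells (y axis, TMM-scaled CPM) against the Cardiopharyngeal Mesoderm share of the same gastruloid (x axis, percent of the remaining cells), 1 point for each of 14 gastruloids. Id1, Id2, Id3 and Igf2 are high where the share is over 5%, and Lefty2, Gsc, Lhx1 and Dll1 reach their highest values under 5%.

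Several other genes rose with the Cardiopharyngeal Mesoderm share. Tgfb2, a growth factor, and Prdm1, a transcriptional repressor, had log2 changes of 2.89 ± 0.339 and 4.05 ± 0.502 (SE, edgeR adjusted p = 0.000555 for each), with highest levels of 36.6 and 20.3 CPM. The imprinted growth factor Igf2 had 55.1, 82.2 and 128 against 115, 147 and 188 (1.36 ± 0.194, edgeR adjusted p = 0.00164), and the imprinted cell cycle inhibitor Cdkn1c had 59.9, 88.5 and 148 against 82.1, 263 and 315 (1.98 ± 0.412, edgeR adjusted p = 0.0144). The retinoic acid receptor Rarb (2.84) and the Wnt antagonist Dkk1 (1.73 ± 0.404) rose, of 15 retinoic acid and Wnt genes, and 3 fell, among them Frzb and Lef1. Coch, Mpped2 and Nexn were the others of the 10 largest rises. Among markers of other types, Krt18 (1.95 ± 0.424) and Sox2 (2.28 ± 0.494) rose and Fli1 (-3.48) and Dppa5a (-2.70) fell, and none of these 4 was above 30.8 CPM. Trh, an endoderm marker among the 10 largest falls, had 14.5, 66.4 and 110 against 19.2, 24.4 and 64.8.

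How many of these slopes passed changed with the gastruloids, cells and test used. Without barcode 21, 27 genes rose and 33 fell, and of 51 named genes 16 still passed, while 51 of 51 had the same sign. The named genes were chosen because they passed in the full fit, and each alternative reuses its gastruloids. An equal sign in an alternative is thus no independent check. Igf2, Tgfb2, Prdm1, Smarcd3, Tcf21, Mef2c, Cdkn1c, Lefty2, Dll1, Flt1 and Trh still passed in edgeR, and Id1, Id2, Id3, Gsc, Lhx1 and Myl7 did not (adjusted p = 0.171, 0.241, 0.0707, 0.0754, 0.125 and 0.113). Dkk1, Krt18, Fst, Sox2, Snai2 and Fgf5 missed the threshold too (edgeR adjusted p = 0.201, 0.144, 0.139, 0.0958, 0.0524 and 0.0514). Without barcode 21 the slopes of Id1, Id2, Id3, Gsc, Lhx1 and Myl7 moved little. Per unit of the square-root covariate, the log2 slope with and without barcode 21 was 0.263 and 0.267 for Id1, 0.296 and 0.273 for Id2, 0.330 and 0.365 for Id3, -0.768 and -0.756 for Gsc, -0.265 and -0.298 for Lhx1, and -0.212 and -0.219 for Myl7. By DESeq2, 33 of the 51 passed and 51 had the same sign. Among them Id2, Fst, Dkk1, Krt18 and Lhx1 missed its threshold (DESeq2 adjusted p = 0.221, 0.199, 0.189, 0.138 and 0.0612), as did Spry4, Mesp2, Sp5, Lfng, Ripply2, Pcdh8, Pcdh19, Frzb, Nexn, S100a10, Gm45889 and Lmo1. The DESeq2 slopes of Id2, Fst, Dkk1, Krt18 and Lhx1 were 0.330, -0.266, 0.293, 0.254 and -0.253, beside 0.296, -0.293, 0.280, 0.316 and -0.265 in edgeR. Id1 also missed the threshold without lane A, C or D, with a minimum of 20 cells and without barcodes 1, 7 and 13 (edgeR adjusted p = 0.0513 to 0.0782). The last of these alternatives was chosen after seeing the data. The sum of UMIs moved with the covariate, at 472671 to 4369488 in the 8 gastruloids under 5% and 3109304 to 12678862 in the 6 over it. The nascent-labelled share ran from 0% to 80.8% in the first and from 10.5% to 83.4% in the second. With only the paraxial-labelled cells, an alternative chosen after seeing the data, 40 genes rose and 59 fell over 12 gastruloids. Of 48 named genes tested there, 22 passed and 48 had the same sign. Trh, Id1, Myl7, Smarcd3, Sox2, Lhx1, Cdkn1c and Krt18 missed the threshold in these cells (edgeR adjusted p = 0.235, 0.211, 0.208, 0.0821, 0.0672, 0.0646, 0.0597 and 0.0527), while Id2, Id3, Igf2, Tgfb2, Prdm1, Tcf21, Mef2c, Lefty2, Gsc and Dll1 passed. The slope per unit moved from -0.358 to -0.169 for Trh, -0.265 to -0.139 for Lhx1 and 0.253 to 0.162 for Smarcd3. It moved from 0.263 to 0.196 for Id1, -0.212 to -0.151 for Myl7 and 0.321 to 0.235 for Cdkn1c. For Sox2 and Krt18 it was 0.369 and 0.316 in all cells and 0.381 and 0.367 in the paraxial-labelled ones. The Late Nascent Mesoderm share also moved with the covariate. It was 1.20% to 15.2% in the 8 gastruloids under 5% and 9.89% to 19.8% in the 6 over it. The 14 gastruloids were in 1 pool. The part of depth, of the label mix, of the Late Nascent Mesoderm share or of Cardiopharyngeal RNA in these slopes was not tested.

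Against the neural share of the gastruloid (neurectoderm, spinal cord and neurons), which was small in these 14 gastruloids (0.107% to 3.70%), 0 of 10647 genes passed in edgeR in either direction (0.0% higher and 0.0% lower), while 633 had an unadjusted p under 0.05. DESeq2 called 11 higher and 10 lower. The 4 markers pointed down, with log2 changes over the range of -1.72 for Mesp1, -5.37 for Hand1, -1.08 for Gata6 and -2.67 for Kdr (edgeR adjusted p = 0.216 to 0.642). An unadjusted p under 0.05 was found for 4 of these 4, beside 633 of 10647 genes, and 0 of 4 passed after adjustment.

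Late Nascent Mesoderm of the 2 experiments was compared at day 4 in 14 gastruloids of MULTI-seq 3 and 3 of MULTI-seq 2 (barcodes 12, 28 and 55 with 45, 34 and 24 cells). Of 10812 genes, 944 (8.73%) were higher and 967 (8.94%) lower in MULTI-seq 3 by edgeR. Pfn1, an actin-binding protein, had 102 to 106 CPM in MULTI-seq 2 and 1022 to 1312 in MULTI-seq 3 (log2 3.49), and the mitochondrial mt-Atp6 had 11858 to 12802 and 3029 to 3535 (-1.97). In the other cells of the same gastruloids Pfn1 had a mean of 127 in MULTI-seq 2 and 1128 in MULTI-seq 3, and it was 40.2 in the Late Nascent Mesoderm cells of the 10X day 4 lane. The median mitochondrial share of Late Nascent Mesoderm cells was 5.09% and 5.28% in the 2 lanes of MULTI-seq 2 and 2.10% to 2.21% in the 4 of MULTI-seq 3. Set against the other cells of the same gastruloids, an alternative chosen after seeing the data, 0 of 13243 genes passed (0.0% higher and 0.0% lower by edgeR, 1034 at an unadjusted p under 0.05). With 3 gastruloids of MULTI-seq 2, this does not show that the shift between experiments is equal in all cells. Experiment, culture, lanes and depth cannot be told apart.

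The 4 markers did not pass between experiments. In barcodes 12, 28 and 55 of MULTI-seq 2, Mesp1 was at 104, 168 and 135 CPM and Gata6 at 29.3, 58.1 and 44.3, within their range in MULTI-seq 3 (log2 differences 0.11 ± 0.442 and 0.39 ± 0.272, SE, edgeR adjusted p = 0.917 and 0.363). Hand1 was at 0, 0.953 and 0 and Kdr at 7.17, 2.86 and 21.1, both at the low end of MULTI-seq 3. The fitted log2 differences were 6.97 ± 3.14 for Hand1, which depends on the prior count because MULTI-seq 2 is at or near 0, and 2.65 ± 1.12 for Kdr (SE, edgeR adjusted p = 0.136 and 0.111). In MULTI-seq 2 the Tcf15 levels were 286, 246 and 314.

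Between days, gene tests were not run, since at least 3 gastruloids with 10 such cells were asked for on each day and only 1 gastruloid of day 3.5 and 1 of day 4.5 in MULTI-seq 3 held as many. Their values have no replicate check. The day 3.5 gastruloid (30 cells, 1534603 UMIs) had Mesp1 at 306, Hand1 at 23.5, Gata6 at 41.1 and Kdr at 107 CPM. Its Tdgf1 was at 270, Mixl1 at 47.6 and T at 58.0, while the paraxial factor Tcf15 was at 10.4 and Cer1 at 2.61. The day 4.5 gastruloid (10 cells, 312750 UMIs) had Mesp1 at 70.3, Gata6 at 25.6 and Kdr at 41.6, with Hand1, Tdgf1, Mixl1 and T at 0. Its Tcf15 was at 748 and Cer1 at 454. Myl7 was high in both, at 268 and 230 CPM, against 8.72 and 1.88 in their other cells.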

How the data were processed

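Single-cell RNA-seq of gastruloids was used, in 18 lanes. The deposited matrices hold UMI counts per gene and cell barcode, for which Cell Ranger 6.0.0 is named per the file headers, with build mm10 and Seurat named in the submitters' processing notes. The annotation and barcode filter are not given in these sources. Cell types, gastruloid calls and the embryo mapping, with a score given as a fraction of 0 to 1.0, are as deposited by the authors in their cell table.

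Counts of Late Nascent Mesoderm cells were summed per gastruloid. Shares used gastruloids with at least 30 cells and gene tests those with at least 10 Late Nascent Mesoderm cells. Shares were tested with a permutation test of 100000 resamples, and genes with edgeR 4.0.16 (quasi-likelihood, TMM, its default expression filter, Benjamini-Hochberg over all genes tested, threshold 0.05), with DESeq2 1.42.0 as an alternative, in R 4.3.3. Other values came from Python 3.11.15, numpy 2.4.6 and scipy 1.17.1. Comparisons with other cell types are descriptions, on genes with at least 20 CPM and a pseudocount of 5. For shares of cells with a UMI, cells were thinned to 5000 UMIs. Cells called doublet or negative by MULTI-seq were left out of values per gastruloid, and no further doublet caller was run. The gene tests were also run on simulated counts of genes with at least 20 CPM and a fixed dispersion. That run does not cover lower genes or genes with a wider spread between gastruloids.

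Genes named are members of the gene lists, the 15 with the largest difference from all other cells, the 10 each way from Cardiopharyngeal and from Early Nascent Mesoderm, and the 10 with the largest change each way among those past a test's threshold with a mean of at least 20 CPM. Some list members are not reported here by name. The members and lists were chosen with earlier results of these data known. The alternatives were other size factors, DESeq2, filters, cell minimums and leaving out lanes or gastruloids. Gene tests between days were not run, because fewer than 3 gastruloids of days 3.5 and 4.5 held 10 such cells.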

Additional observations from a re-analysis of the deposited data

Results flagged for a closer look

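Late Nascent Mesoderm cells also appeared in 4 sets of libraries that enter none of the comparisons over gastruloids, and in 3 of these they numbered more than 3 cells. In the 10X lane of day 4 they were 75 of 2449 cells in the authors' table, or 3.06%. In pool C of MULTI-seq 2, which has no gastruloid calls here and mixes days 4 and 4.5, they were 69 of 5106 cells, or 1.35%. In the day 5 lanes of MULTI-seq 1 they were 4 of 9736 cells, or 0.0411%. The shares of the 10X lane and of pool C have no check over gastruloids. In the 2 lanes of pool C, which are technical splits, the share was 1.38% and 1.32%. Over the 24 gastruloids of MULTI-seq 1 it was 0.0362% ± 0.125 (SD), and 2 of them held such cells. The shares of the 10X day 4 lane and of pool C lie above the 0.0541% that 0 cells allow in the smaller day 3 lane of MULTI-seq 3, and the share of day 5 lies below it. The fourth set, the 10X lane of day 3, held 2 of 3058 cells, or 0.0654%. In the 10X lane of day 4 (74 cells with counts, 1317488 UMIs), Mesp1 was at 151 CPM against 26.3 in the other cells, Gata6 at 76.7 against 17.4, Kdr at 78.2 against 13.2, Myl7 at 105 against 2.23 and Hand1 at 67.6 against 65.1.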

How the results depend on the processing

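The 3 called differences in share kept their direction and call with a minimum of 100 cells, without each lane and in edgeR's test of cell numbers, and the difference between experiments at day 4 passed in none of these. In MULTI-seq 2 the number of cell types whose share went with that of Late Nascent Mesoderm by Pearson's r was 1, and 0 with shares of all cells, with a minimum of 100 cells or without lane 3. The slope on the Cardiopharyngeal share called 137 genes up and 221 down, against 259 and 353 with a minimum of 20 cells, 27 and 33 without the gastruloid with the highest share, and, as alternatives chosen after seeing the data, 434 and 512 without barcodes 1, 7 and 13, and 40 and 59 with paraxial-labelled cells only, where fewer genes and gastruloids were tested. The neural slope called 0 genes, against 11 up and 10 down by DESeq2, 1 down with no filter on low counts, and 2 up and 5 down without lane A. Between the experiments, 944 and 967 genes were called, against 564 and 633 without lane 2 of MULTI-seq 2, 626 and 621 without lane 3, and 565 to 661 up and 617 to 734 down without each of its gastruloids in turn. Apart from fewer samples or genes where so named, the cause was not tested. Among the called results no sign reversed in the alternatives run, but these reuse the same gastruloids and are no independent check of the sign. Some relations that did not pass changed sign. In MULTI-seq 3 Mature Endoderm had r = 0.129 and, without 2 gastruloids, r = -0.0419, and Head Mesoderm had r = -0.294 and rho = 0.0829. Gene tests between days and their alternatives were not run. No paired analysis was possible because lane numbers are technical splits of a pool and the gastruloid barcodes pair no gastruloids across days or experiments. The 3 gastruloids of MULTI-seq 2, and sums as small as 472671 UMIs from 12 cells, limit what can be read for low genes, and 0 UMIs of Hand1 there does not show that it is absent.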
